A study of Danio rerio with 3 samples.

Results

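Interferon response genes are the genes through which a vertebrate cell senses foreign nucleic acid, makes interferon and answers it. The set described here holds 39 listed genes that encode an interferon, its receptor chains, the kinases and STAT factors behind the receptor, interferon regulatory factors (IRFs), nucleic acid sensors and antiviral effectors. They were looked up by symbol on the array, and 33 had a probe set naming that gene alone, out of 19260 named genes in all. The other 6, crfb5, irf2, mavs and sting1 among them, were not analysed here. Brain total RNA of adult zebrafish was measured on 1 array per condition; the fish were 6 months of age and the water was at 28 °C. Sleep-deprived fish had 3 days of extended light, with 24 h light and 0 h dark in each. Fear-conditioned fish had been trained in inhibitory avoidance, in which an animal learns to hold back a response that brings an aversive stimulus, and their hours of light are not stated separately. Naive fish had a daily cycle of 14 h light and 10 h dark. Strain, sex, the time of day of sampling and the number of fish behind an array are not given in these sources. With 1 array per condition, no difference below has a standard error, a test or a replicate check. The set and the gene lists below were chosen with earlier results of these data known. Shares of all genes are printed beside their counts for scale, and an excess over such a share is not independent evidence.

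Fish interferons of the phi group bind receptor chains of the cytokine receptor family B (crfb genes), and the receptor signals through the kinases Jak1 and Tyk2. In vertebrates these phosphorylate Stat2, which joins Irf9 in a complex that switches on interferon-stimulated genes. Many of the pathway's own parts, such as Irf7 and Stat2, are themselves interferon-stimulated, and in the resting brain the pathway is kept at a low tone, with microglia among its main responders to injury and infection.

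Values are the deposited signals on a log2 scale, and a difference is the log2 signal of the first-named array minus that of the second. A gene was tested further when it reached 3.45 on at least 1 array; this value is the 25th percentile over the whole table and is called the dim limit below, but it is not a measured background. Of the 33 genes on the array, 31 passed, and the other 2 were the interferon gene ifnphi1, at 3.09 on all 3 arrays, and ifit10, at 2.84 on all 3. Exactly equal values were frequent in this table: 29.0% of the 31 genes and 34.2% of all 17958 genes tested had the same value on all 3 arrays. Different genes also carried identical values. The genes cgasa and ifit11 were both at 4.12748 on all 3 arrays, and crfb1 and gbp1 both at 6.07633 on the fear-conditioned and naive arrays. The origin of these ties is not known, so equal values below are not evidence of unchanged expression. Neurons were represented as the tissue label says, with all 12 neuronal marker genes above the dim limit and a mean log2 signal of 9.57 on the sleep-deprived, 9.55 on the fear-conditioned and 9.53 on the naive array.

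**Figure D1:**
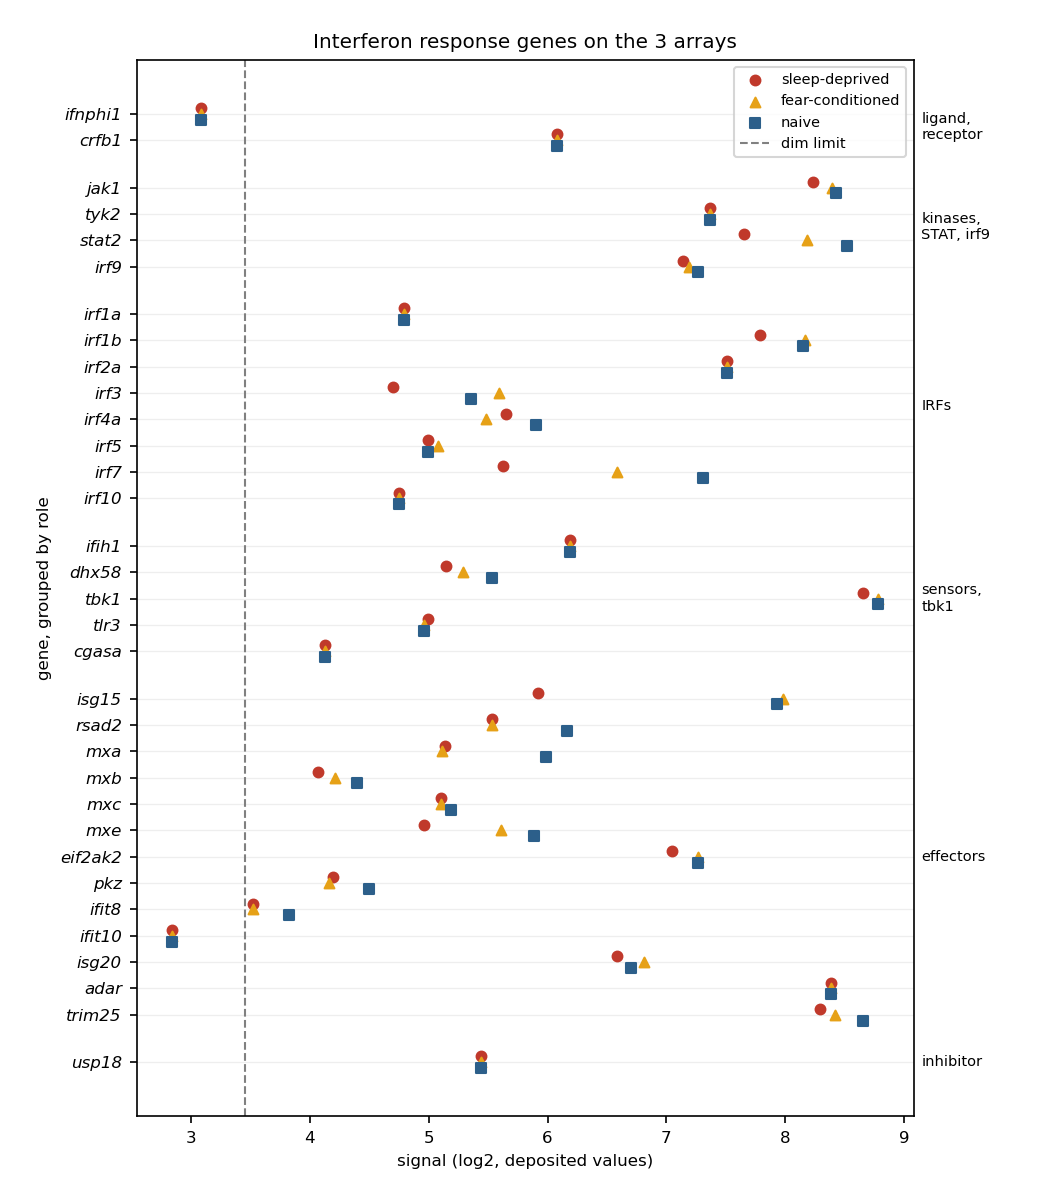
Signal of the 33 interferon response genes on the log2 scale (horizontal axis), grouped by role down the page, with 1 symbol for each of the sleep-deprived, fear-conditioned and naive arrays and a dashed line at the dim limit of 3.45. For irf7, stat2 and mxe the sleep-deprived symbol is leftmost and the naive symbol rightmost, for isg15 the sleep-deprived symbol stands apart on the left, and for rsad2 and mxa both stressed arrays lie left of the naive one.

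The sleep-deprived array had lower signals than the naive array for several antiviral effectors and for some, not all, of the transcription factors of the pathway. The ubiquitin-like modifier isg15 was 4.03-fold lower, the transcription factor irf7 3.22-fold, the GTPase genes mxe and mxa 1.90-fold and 1.80-fold, and the signal transducer stat2 1.82-fold. Of the 31 genes tested, 2 were at least 2-fold lower, where the share over all genes tested was 0.668%, and 7 were at least 1.5-fold lower, against 2.43% of all genes. No gene of the set was at least 1.5-fold higher, for which the share over all genes was 0.484%, or 2-fold higher (0.0947% of all genes). The median log2 difference was -0.19 and the mean -0.35, against a median of 0.00 and a mean of -0.03 over all genes tested.

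Counting directions alone, 20 of the 31 were lower on the sleep-deprived array, 1 was higher (tlr3, at 0.03) and 10 were exactly equal. Over all genes tested, 30.9% were lower, 24.8% higher and 44.3% equal. Equal genes have no direction of their own. Centring the arrays by the median of their named genes adds 0.04 to every difference and so puts equal genes above 0. It made the split 20 lower and 11 higher. Quantile normalization also left no gene of the set equal, with a median of -0.01 over all genes. It made the split 29 lower and 2 higher. The directions that equal genes gained in this way come from the processing.

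The fear-conditioned array set against the naive one gave fewer and smaller differences. None of the 31 genes was at least 2-fold lower, where the share over all genes was 0.184%, and 3 were at least 1.5-fold lower, against 0.763% of all genes. These were mxa, irf7 and rsad2. None was at least 1.5-fold higher, where all genes had 0.83%, or 2-fold higher (0.245% of all genes). The set had a median of 0.00 and a mean of -0.14, against a mean of 0.01 over all genes, with 14 genes lower, 5 higher and 12 equal. Over all genes tested, 23.2% were lower, 30.6% higher and 46.2% equal. Centring made that split 26 lower and 5 higher, because it lowered every difference by 0.01 and so put equal genes below 0. Quantile normalization, which also left no gene of the set equal, made it 23 lower and 8 higher.

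Set against the fear-conditioned array, the sleep-deprived array had 1 gene at least 2-fold lower, isg15, where the share over all genes was 0.869%. At the 1.5-fold threshold 4 genes were lower, against 2.71% of all genes: isg15, irf7, irf3 and mxe. No gene was at least 1.5-fold higher, where all genes had 0.562%, or 2-fold higher (0.134% of all genes). The median was 0.00 and the mean -0.21, against a mean of -0.04 over all genes. The split was 15 genes lower, 4 higher and 12 equal, and over all genes 34.5% were lower, 23.1% higher and 42.4% equal. Centring, which added 0.05 to every difference and so put equal genes above 0, made the split 14 lower and 17 higher. Quantile normalization also left no gene of the set equal, with a median of -0.01 over all genes, and made it 24 lower and 7 higher. These differences follow from the other 2 comparisons, which share the naive array, so the 3 are not independent of each other.

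**Figure D2:**
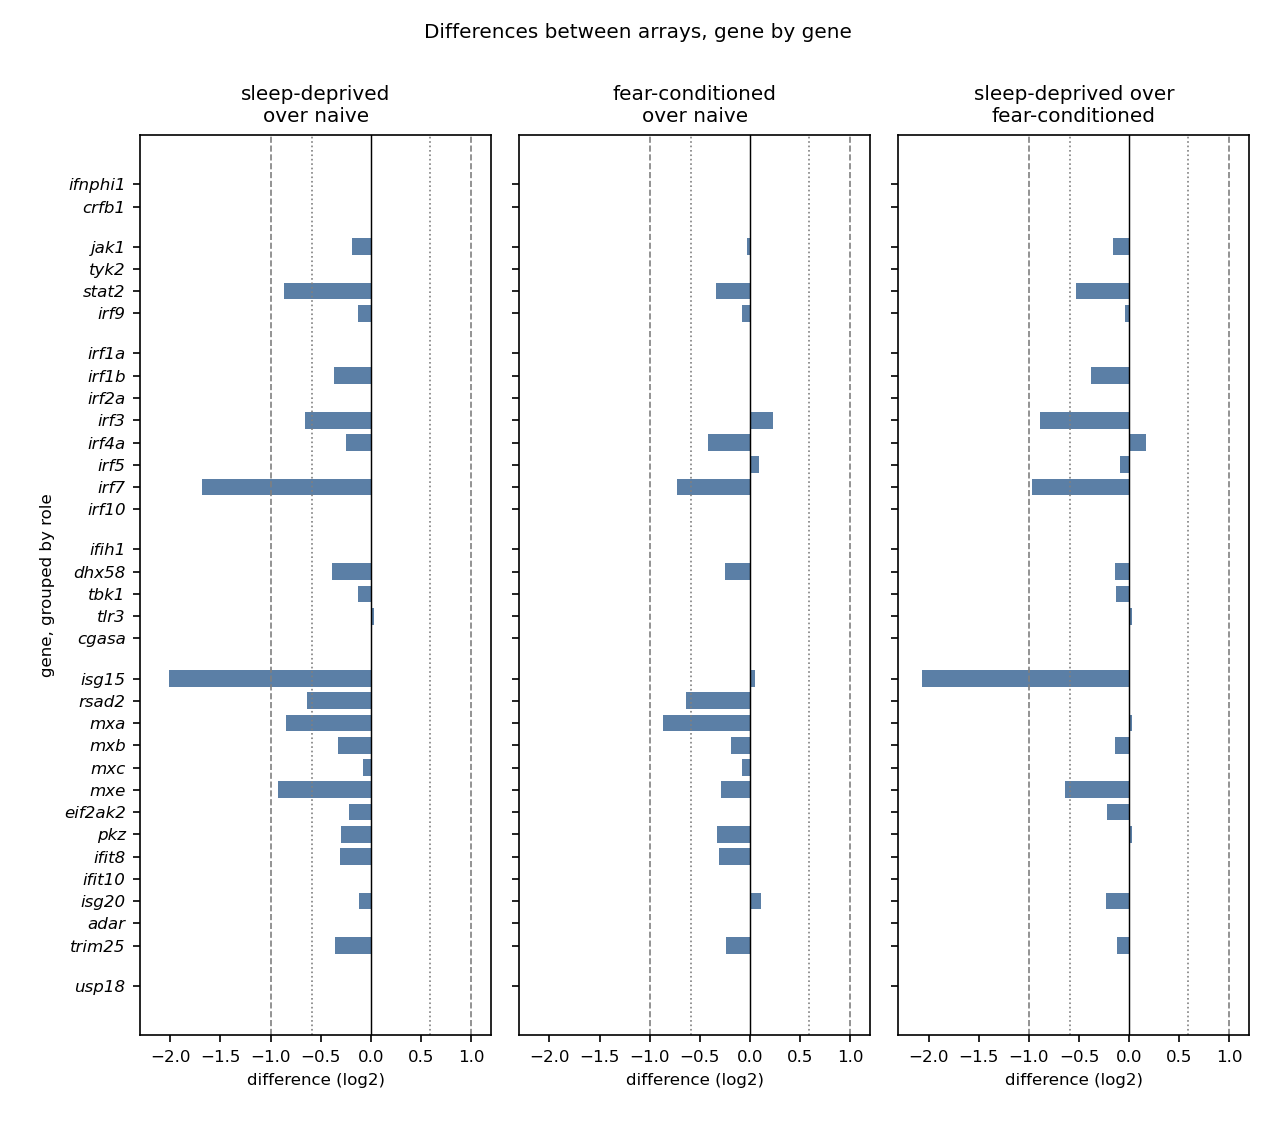
Log2 difference of each of the 33 interferon response genes (horizontal axis) in sleep-deprived over naive, fear-conditioned over naive and sleep-deprived over fear-conditioned, with dashed lines at 2-fold and dotted lines at 1.5-fold. In the first panel isg15 and irf7 pass 2-fold and mxe, stat2, mxa, irf3 and rsad2 pass 1.5-fold, all to the left, and in the second panel mxa, irf7 and rsad2 do so while isg15 stands at 0.05.

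At the upstream end of the pathway the measured differences were 0 or small, and those of 0 are exact ties that do not show unchanged expression. The receptor chain crfb1, which in zebrafish takes part in the receptor for the interferon encoded by ifnphi1, had a log2 signal of 6.08 on all 3 arrays. The receptor-bound kinase gene tyk2 was also equal on all 3, at 7.37. Its partner jak1 was at 8.24 on the sleep-deprived, 8.40 on the fear-conditioned and 8.43 on the naive array, a difference of -0.19 between sleep-deprived and naive.

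Downstream of the receptor, stat2 had a log2 signal of 7.66 on the sleep-deprived, 8.18 on the fear-conditioned and 8.52 on the naive array. Its differences from naive were -0.86 after sleep deprivation and -0.34 after fear conditioning. Its partner irf9, the DNA-binding part of the same complex, was at 7.14, 7.19 and 7.27 on the sleep-deprived, fear-conditioned and naive arrays. The 2 genes shared the order of the arrays, but the difference in sleep-deprived over naive was -0.13 for irf9.

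Among the 8 IRF genes tested outside that complex, irf7 had the most negative difference. IRF7 is the factor that amplifies interferon production once a first wave of interferon has induced it. The irf7 signal was 5.62 on the sleep-deprived, 6.59 on the fear-conditioned and 7.31 on the naive array, so that the fear-conditioned array lay between the others. Its differences from naive were -1.69 and -0.72, which put it at rank 18 from the lowest of 17958 genes after sleep deprivation and at rank 68 after fear conditioning.

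The signal of irf3, whose product is activated by phosphorylation and starts interferon transcription, was 4.70 on the sleep-deprived, 5.59 on the fear-conditioned and 5.36 on the naive array. Here the fear-conditioned array was the highest of the 3, at 0.23 above naive, and the sleep-deprived array was 0.66 below naive. The irf1b signal followed the same arrangement in smaller steps, at 7.78, 8.17 and 8.15 on the sleep-deprived, fear-conditioned and naive arrays. For irf4a, a factor of lymphoid cells, the fear-conditioned array was the lowest, with 5.65 on the sleep-deprived, 5.48 on the fear-conditioned and 5.90 on the naive array. The remaining IRF genes gave little or nothing to compare: irf1a, irf2a and irf10 were equal on all 3 arrays, and irf5 had 4.99 on the sleep-deprived, 5.08 on the fear-conditioned and 4.99 on the naive array.

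Among the 5 nucleic acid sensing genes tested, 0 were at least 1.5-fold apart in any of the 3 comparisons. Over all genes tested, 2.43% were that much lower and 0.484% that much higher in sleep-deprived over naive. With shares this small, 0 of 5 does not set these genes apart from other genes. For dhx58, which encodes LGP2, a regulator of the RNA sensors of the RIG-I family, the signal was 5.15 on the sleep-deprived, 5.29 on the fear-conditioned and 5.54 on the naive array, differences of -0.39 and -0.25 from naive. The RNA sensor MDA5 is encoded by ifih1, which was at 6.19 on all 3 arrays, and cgasa, a cGAS-type DNA sensor gene, was at 4.13 on all 3. The kinase tbk1, which phosphorylates IRF3, was at 8.66 on the sleep-deprived array and at 8.78 on both the fear-conditioned and the naive array. For tlr3, the endosomal receptor of double-stranded RNA, the sleep-deprived array was the highest, at 4.99 against 4.96 on each of the others.

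Effector genes, 12 of the 31 tested, held 4 of the 7 genes that were at least 1.5-fold lower in sleep-deprived over naive. The 8 IRF genes tested outside the Stat2 complex held 2, and the 4 kinase and STAT genes, with irf9 among them, held 1. With groups this small, these counts do not set the effectors apart. The isg15 signal was 5.92 on the sleep-deprived, 7.98 on the fear-conditioned and 7.93 on the naive array. The sleep-deprived array thus stood alone, with the other 2 arrays 0.05 apart. The difference of -2.01 from naive was at rank 10 from the lowest of 17958 genes, and the difference of -2.06 from the fear-conditioned array at rank 17.

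The signals of genes that act on the ISG15 protein did not differ by that size, which for usp18 rests on an exact tie and does not show unchanged expression. The protease gene usp18, which removes ISG15 from proteins and also dampens receptor signalling, was at 5.44 on all 3 arrays. The uba7 gene, which encodes the enzyme that activates ISG15 for conjugation, was at 6.08 on the sleep-deprived, 6.28 on the fear-conditioned and 6.37 on the naive array. For trim25, a ubiquitin ligase that acts in RNA sensing, the signal was 8.30, 8.42 and 8.66 on the sleep-deprived, fear-conditioned and naive arrays.

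A second arrangement, with both stressed arrays below the naive one by about the same amount, was seen in rsad2 and mxa. The rsad2 gene encodes viperin, an antiviral enzyme, and had a log2 signal of 5.53 on both the sleep-deprived and the fear-conditioned array and of 6.16 on the naive array. The rsad2 values of the stressed arrays are an exact tie of unknown origin, so their agreement is not evidence of equal expression. For mxa, one of the Mx GTPases that block virus replication, the signal was 5.14 on the sleep-deprived, 5.11 on the fear-conditioned and 5.99 on the naive array. In fear-conditioned over naive the mxa difference of -0.87 was the most negative of the set, at rank 45 of all genes. Smaller differences of this kind were found for pkz, which encodes a kinase with Z-DNA binding domains in fish, at -0.30 after sleep deprivation and -0.33 after fear conditioning, and for ifit8, at -0.31 in both. The ifit8 signals of 3.52 on both stressed arrays were also an exact tie and were close to the dim limit, so the size of that difference is uncertain.

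The Mx family could be followed over 7 genes, 4 of them in the set and the others, mxd, mxf and mxg, from the wider pathway list. The mxe gene had 4.96 on the sleep-deprived, 5.61 on the fear-conditioned and 5.89 on the naive array, which is the graded arrangement of irf7 and stat2 and not that of mxa. For mxc the signals were 5.11, 5.11 and 5.19, and for mxd 6.35 on each array. The mxg gene was 0.04 higher on the sleep-deprived than on the naive array, and mxf was below the dim limit on all 3. Of the 6 Mx genes above the dim limit, 4 were lower in sleep-deprived over naive, 1 was higher and 1 equal. Over all genes tested these shares were 30.9%, 24.8% and 44.3%, and 6 genes are too few to set apart from them. Centring put the equal one above 0, quantile normalization put it below 0, and the brightest probe set left 3 lower and 2 higher. The 2 probe sets of mxb, the 1 gene of the set with more than 1, disagreed: their differences in sleep-deprived over naive were 0.01 and -0.66. The pairs mxa and mxb, mxc and mxe, and pkz and eif2ak2 are direct neighbours among protein-coding genes of the GRCz12tu assembly. Related copies can share probe sequence, and whether these probe sets bind more than 1 copy was not tested.

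The remaining effectors differed by less than 1.5-fold in all 3 comparisons. The kinase gene eif2ak2, which encodes PKR and halts translation when double-stranded RNA is present, was at 7.05 on the sleep-deprived array and at 7.26 on both others. For the exonuclease gene isg20 the signals were 6.58, 6.81 and 6.70 on the sleep-deprived, fear-conditioned and naive arrays, with the fear-conditioned array highest. The RNA-editing enzyme gene adar was equal on all 3 arrays at 8.38.

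Across the 31 genes, the sleep-deprived array alone was lowest for 14, the fear-conditioned array for 3 and the naive array for 0. Over all genes tested these shares were 23.5%, 11.1% and 14.9%. The sleep-deprived array alone was highest for 1, the fear-conditioned array for 5 and the naive array for 14, against 16.1%, 20.1% and 15.6% of all genes. A strict order with sleep-deprived lowest, fear-conditioned between and naive highest was found in 8 genes, which is 25.8%, and in 8.17% of all genes tested. Those 8 were jak1, stat2, irf9, irf7, dhx58, mxb, mxe and trim25, and mxb had this order as the mean of its 2 disagreeing probe sets, the first of which was lowest on the fear-conditioned array.

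**Figure D3:**
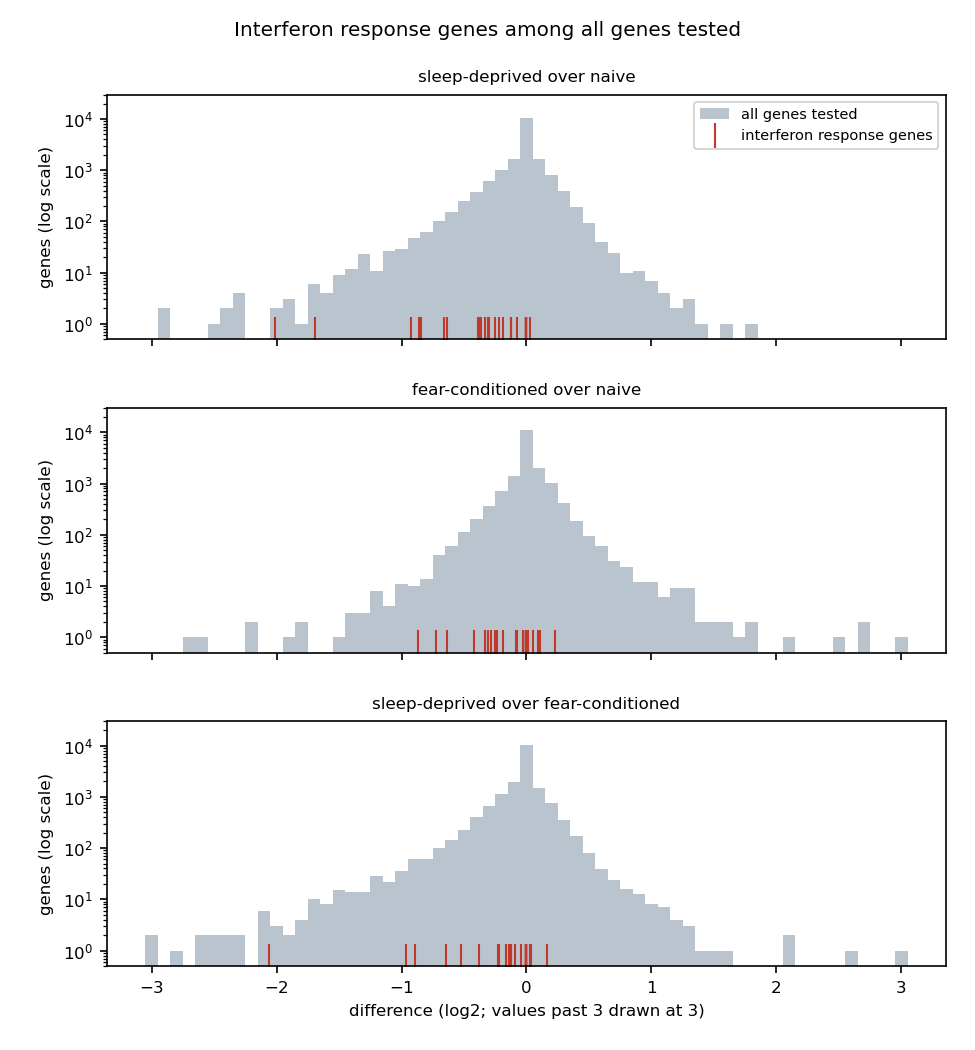
Number of genes (vertical axis, log scale) by log2 difference (horizontal axis, bins of 0.1) for all 17958 genes tested in each comparison, with a red tick for each of the 31 interferon response genes. In sleep-deprived over naive the ticks run from -2.01 to 0.03, and in fear-conditioned over naive from -0.87 to 0.23.

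Other genes of the pathway came from a list of 90, of which 65 were matched on the array and 59 passed the dim limit. Listed names were matched to current symbols, platform symbols or older names of a gene, and letter case had to be the same. A gene named NLRC5, at -0.44 in sleep-deprived over naive, was therefore not matched to the listed nlrc5 and is not in these counts. In sleep-deprived over naive 5 of them (8.47%) were at least 1.5-fold lower and 0 higher, against 2.43% and 0.484% of all genes tested. Their median was -0.06, and 36 were lower, 3 higher and 20 equal, which is 61.0%, 5.08% and 33.9%. Over all genes these shares were 30.9%, 24.8% and 44.3%. In fear-conditioned over naive 1 (1.69%) was at least 1.5-fold lower and 0 higher, against 0.763% and 0.83% of all genes, with a median of 0.00. A count of 1 is too small to set apart from the share over all genes. In sleep-deprived over fear-conditioned 4 (6.78%) were at least 1.5-fold lower and 0 higher, against 2.71% and 0.562% of all genes. At least 2-fold lower were 2 (3.39%) in sleep-deprived over naive, against 0.668% of all genes. In fear-conditioned over naive it was 1 (1.69%), against 0.184%, and in sleep-deprived over fear-conditioned 1 (1.69%), against 0.869%. The genes of this list past 2-fold in any comparison were ifi27.2, lgals3bp.1 and lgals9l1. The interferon-inducible gene ifi27.2 had 4.80 on the sleep-deprived, 5.82 on the fear-conditioned and 6.19 on the naive array. For lgals3bp.1, a secreted glycoprotein gene, the signals were 8.17, 8.96 and 9.47, in the same order of arrays. For the galectin gene lgals9l1 they were 9.15, 8.73 and 10.04, so that the fear-conditioned array was the lowest.

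Interferon gamma, which signals through a different receptor, was represented by ifng1, at 3.87 on all 3 arrays, by ifng1r, and by 3 receptor chains. In sleep-deprived over naive the receptor genes ifngr2 and crfb13 were at -0.30 and -0.22. The ifngr1 signal was 3.25 on the sleep-deprived and 3.34 on the naive array, both below the dim limit, and 3.75 on the fear-conditioned array. Proteasome and peptide transport genes of antigen presentation, which interferon also induces, were at -0.08 for psmb9a, 0.00 for psmb8a and psmb13a and -0.06 for tap1. The MHC class I light chain gene b2m was at -0.32 after sleep deprivation and -0.37 after fear conditioning.

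Markers of microglia and macrophages moved in the same direction. Of 17 such genes on the array, all above the dim limit, 16 were lower in sleep-deprived over naive, 0 were higher and 1 was equal, with a median of -0.57. Over all genes tested, 30.9% were lower, 24.8% higher and 44.3% equal. At least 2-fold lower were 3 (17.6%), against 0.668% of all genes tested. At least 1.5-fold lower were 7 (41.2%), against 22.6% of the interferon response genes and 2.43% of all genes. Both lists were chosen with earlier results of these data known, so these contrasts are descriptive only. The strict order of sleep-deprived, fear-conditioned and naive was found in 11 (64.7%), against 25.8% of the interferon response genes and 8.17% of all genes. In fear-conditioned over naive 14 were lower, 1 higher (ptprc, at 0.86) and 2 equal, with a median of -0.25. Over all genes tested, 23.2% were lower, 30.6% higher and 46.2% equal in that comparison. Their mean log2 signal was 6.85 on the sleep-deprived, 7.17 on the fear-conditioned and 7.44 on the naive array, within ranges of 4.42 to 11.22, 4.67 to 11.52 and 4.82 to 11.84. Their summed signal, taken off the log scale, was 4417, 5647 and 7329 on the same arrays. The 4 largest differences in sleep-deprived over naive were -1.67 for the progranulin gene grna.1, -1.30 for lgals3bp.1, -1.09 for the apolipoprotein gene apoeb and -0.93 for mpeg1.1, a perforin-like gene of macrophages. Other markers differed far less, with p2ry12 at -0.23, havcr1 at -0.18, lcp1 at -0.14 and ptprc at -0.08. The equal one was c1qa. The markers irf8 and lgals3bp.1 also belong to the wider interferon list. The part of microglia and macrophages in the interferon result was not tested, and in RNA from whole tissue fewer cells of a type and less RNA per cell cannot be told apart.

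Markers of other cell types were compared in the same way. The 8 T and B cell markers tested had a median of 0.00 in sleep-deprived over naive, with 2 lower, 1 higher and 5 equal. A gene named CD2, at -0.42, was not matched to the listed cd2 because of letter case and is not among them. The 5 neutrophil markers had a median of -0.09. Endothelial markers had a median of -0.21 over 8 genes, with 6 lower, 1 higher and 1 equal, and 0 at least 1.5-fold lower. Radial astroglia had -0.07 over 8, with 4 lower and 4 higher, and 2 at least 1.5-fold lower. Red blood cells had -0.05 over 5, with 3 lower and 2 higher, and 1 at least 2-fold lower. Neurons had 0.02 over 12, with 1 lower, 8 higher and 3 equal. Lower signals were thus not limited to markers of microglia and macrophages. Skin markers had a median of -0.57 over 5 genes in sleep-deprived over naive, where 4 were lower, 0 higher and 1 equal, and of 1.27 in fear-conditioned over naive, where all 5 were higher. Over all genes tested, 30.9% were lower, 24.8% higher and 44.3% equal in the first comparison. In the second, 30.6% were higher. Whether any of these cell types contributed to the interferon values was not tested.

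**Figure D4:**
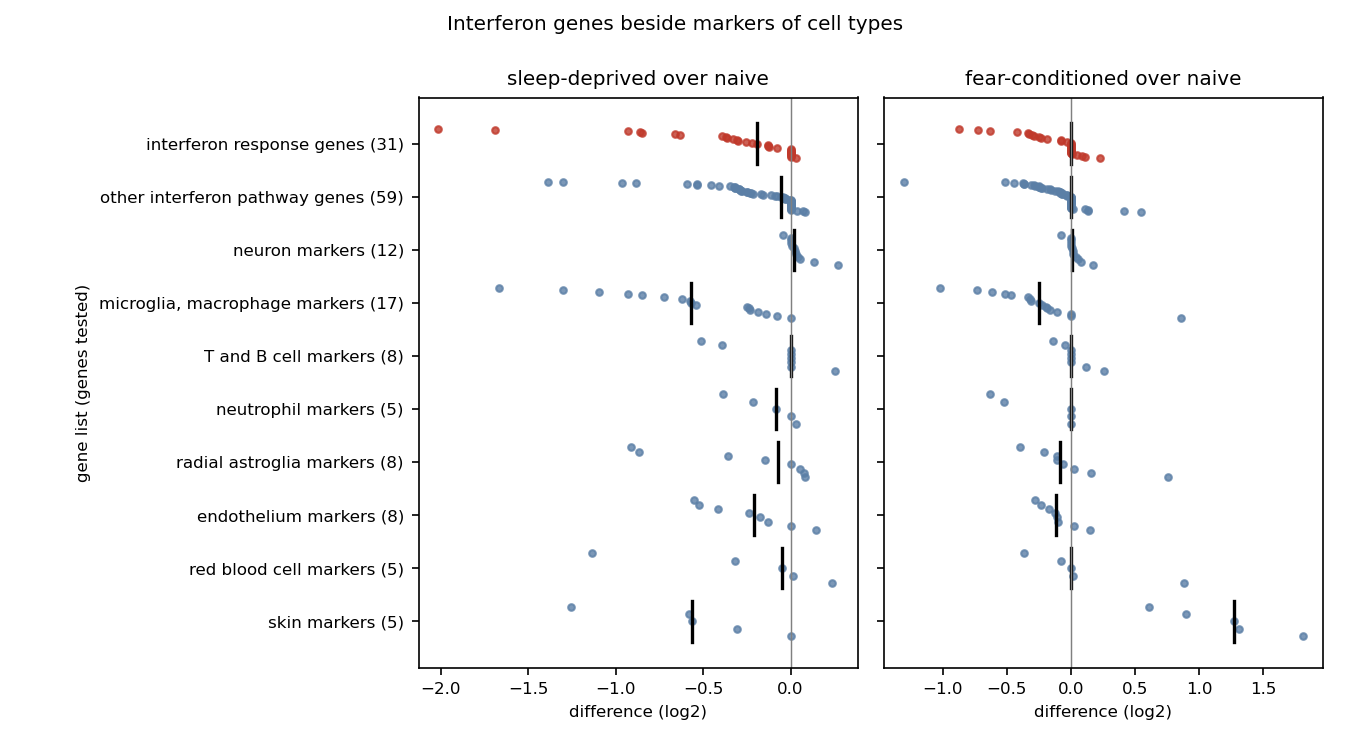
Log2 difference of each gene (points, horizontal axis) and median of each list (black bars) for the interferon response genes, the other interferon pathway genes and markers of 8 cell types, in sleep-deprived over naive and fear-conditioned over naive. Markers of microglia and macrophages have medians of -0.57 and -0.25, the interferon response genes -0.19 and 0.00, and neuron markers 0.02 and 0.01.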

How the data were processed

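RNA was extracted with Trizol and labelled with biotin, per the labels' protocols. The deposited values are 1 per probe set and array and span 0.61 to 13.4, a range that fits log2 signals; they were read as such, although the base is not stated. All 3 arrays share a median of 4.99143, but their 25th percentiles differ: 3.49 on the sleep-deprived, 3.43 on the fear-conditioned and 3.45 on the naive array. The value 4.99143 is also that of irf5 on the sleep-deprived and naive arrays. Whether the shared median comes from such ties or from normalization of the arrays against each other was not tested. The normalization method is unknown. If the arrays were normalized against each other, any change common to all genes is hidden.

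Of 75212 probe sets, the 20806 with 1 symbol in the platform annotation were used. For 20323 of them the symbol was updated through Entrez identifiers (RefSeq, GRCz12tu); probe sets of a gene were averaged. Differences of 2 arrays were counted at 2-fold and 1.5-fold. Genes with values per array are those at least 1.5-fold apart, with the other members by role; 2-fold applied to the wider pathway. Markers were named for microglia, and other lists summarised. The members and lists were chosen with earlier results of these data known. The counting step was tested on simulated data. Python 3.11.15, pandas 2.3.3 and statsmodels 0.14.6 were used. The number of arrays limits the precision.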

Additional observations from a re-analysis of the deposited data

How the results depend on the processing

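No paired analysis was possible because each condition has 1 array, and for the same reason no array could be left out. The 7 listed alternatives were centring on the median over named genes, quantile normalization, subtraction of a lowess fit on signal level (fraction 0.3), the brightest probe set, no dim filter, a dim filter at 4.99 and dim values raised to the limit. Under each of them the counts of interferon response genes at least 2-fold and 1.5-fold lower or higher stayed within 1.5 times. Each of these genes past 1.5-fold or 2-fold stayed past it, and medians moved by less than 0.10. Of the wider pathway only the directions of some gene families were rerun, in sleep-deprived over naive. The marker lists were not rerun. The isg15 difference in sleep-deprived over naive ran from -2.03 to -1.97, that of irf7 from -1.69 to -1.64 and that of rsad2 from -0.64 to -0.59, the last just past 1.5-fold. The median in sleep-deprived over fear-conditioned was 0.05 with centring, as it was over all genes, and -0.09 with the stricter dim filter, against 0.00 over all genes. The brightest probe set of mxb was at 0.01 in sleep-deprived over naive, against -0.33 for the mean of both. Leaving out genes with equal values on the 2 arrays, chosen after seeing the data, moved the median to -0.33 over 21 genes in sleep-deprived over naive, to -0.24 over 19 in fear-conditioned over naive and to -0.14 over 19 in sleep-deprived over fear-conditioned. Over all genes it was then -0.03, 0.02 and -0.04. The filter on equal genes itself accounts for these moves. No detection call comes with the values, so how far dim genes such as ifit8 lie above background is unknown.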
